A study of Homo sapiens with 3 samples.

Results

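The regions described here are the nuclear background clusters of a MATR3 knockout library: the sites at which RNA was still recovered from cells meant to lack the protein under study. They are all clusters of the knockout (KO) table that lie outside the mitochondrial chromosome, 825 of its 842 clusters and of 115227 clusters in the 3 libraries. A cluster is a stretch of overlapping reads with T-to-C changes, called by the authors in each library on its own. The members were selected on the values of the KO library itself, since its table lists what was called from its reads. The lowest values among them were 5 reads and 2 converted positions, and the limits the authors set are not given in the sources used here. Their KO read counts and conversions are therefore given as a description.

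The study mapped RNA contacts of MATR3 in HAP1, a human cell line with close to a haploid genome that stems from the chronic myeloid leukaemia line KBM-7. Wild-type (WT) cells gave 2 libraries and a MATR3 knockout gave 1, the negative control of the design. Both lines were bought, and the labels give 1 catalogue item for the knockout and do not say how the gene was disrupted. Recovery used anti-FLAG beads in every group, the labels record no tag on MATR3, and RNA was cloned from the gel band at the position of the MATR3 complex.

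In PAR-CLIP, cells are fed a thiouridine that crosslinks to bound protein under UV light and is then read as C, so T-to-C changes mark crosslinked sites. RNase T1 cuts after G, which trims the bound RNA to short fragments that tend to end in G. MATR3 is a nuclear matrix protein with RNA recognition motifs and zinc fingers, and it is known to bind pyrimidine-rich stretches of introns. A knockout library holds what the beads, the gel band and other proteins carry through, together with any errors of cloning and mapping.

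The 825 clusters held 214471 reads, against 2599977 reads in 87122 nuclear clusters of WT replicate 1 and 1521355 reads in 27053 of WT replicate 2. Of the 825 clusters, 540 were intronic, 120 had no annotation, 53 lay in 3′ UTRs, 35 in repeats and 18 in coding sequence. Another 18 lay in introns of long intergenic RNAs, and no other class had more than 8. Only reads inside clusters are listed, so the depth of the libraries is unknown, and reads without molecular identifiers are not independent molecules, so every interval below covers counting error only. Since KO has a single library, genotypes could not be tested against each other, and nothing in the labels says whether the WT libraries came from separate cultures. MATR3 itself held no member, against 53 and 26 nuclear clusters in the WT libraries, shares at which 825 clusters would hold 0.502 and 0.793, so a difference was not detectable.

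The 5 members shown first overlapped a cluster in both WT libraries, and with ASPH and NAP1L1, which are not printed, they are all 7 that did. Coordinates are 1-based on GRCh38 (hg38, per the submitters' processing notes), and capitals mark runs of 5 or more T or C.
RNA5SP242: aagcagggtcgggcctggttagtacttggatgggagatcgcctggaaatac
RBM4: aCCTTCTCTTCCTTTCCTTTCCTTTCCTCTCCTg
NAB1: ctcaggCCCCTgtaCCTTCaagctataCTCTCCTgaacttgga
ELMSAN1: tgtacatatataaatattaCCTCTTTTg
YTHDF1: aatctgCCCTTCCTCTgggcagaac
The first is a 5S rRNA pseudogene at chr7:128697491-128697541 on the plus strand, and its T and C bases form no run of that length. RBM4 (intron, chr11:66646171-66646204, plus strand) is an almost unbroken pyrimidine tract. NAB1 (intron, chr2:190653167-190653209, plus strand), ELMSAN1 (3′ UTR, chr14:73715298-73715325, minus strand) and YTHDF1 (intron, chr20:63212179-63212203, minus strand) hold shorter runs.

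The intronic members without an overlap and under 40 nt that had the most reads are shown with the same capitals.
TMEM38B: ataacaaTTTCTTacatagatatagggcta
CCDC71: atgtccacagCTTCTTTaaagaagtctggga
FAM219A: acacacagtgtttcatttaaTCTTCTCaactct
GLCCI1: ataCCCCTatgggaaggagaagtatcatag
They lie at chr9:105768566-105768595 (plus strand), chr3:49165350-49165380 (minus strand), chr9:34437682-34437714 (minus strand) and chr7:8002870-8002899 (plus strand). Each holds 1 such run. G made up 6.06% of the FAM219A cluster, below the WT share given further on, and 13.3 to 26.7% of the other 3. The extremes of base composition among members with 20 or more reads follow, with no capitals, in the order of 2 with the highest and 2 with the lowest share of T.
FOXJ3: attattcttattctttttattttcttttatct
MAST2: ttatttcttcctatcttttttctg
FSCN1: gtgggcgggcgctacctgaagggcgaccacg
DYRK1A: caccgaacactgcaagaaggatgatagcag
T made up 71.9% of the FOXJ3 cluster (intron, chr1:42283539-42283570, minus strand) and 66.7% of that in MAST2 (intron, chr1:45995986-45996009, plus strand). It made up 9.68% of the FSCN1 cluster, the only coding one of the 4 (chr7:5605385-5605415, plus strand), and 10% of that in DYRK1A (intron, chr21:37374289-37374318, plus strand).

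KO clusters were few but deep. The median KO cluster had 242 reads (quartiles 111 and 373), against 20 (12 and 34) in WT replicate 1 and 39 (15 and 80) in WT replicate 2. Of the 825 clusters, 641 (77.7%, 95% Wilson interval 74.7 to 80.4%) had 100 or more reads, a level reached by 3.55% of WT replicate 1 and 16.4% of WT replicate 2. The reads were also more repetitive, with 30.6 reads for each distinct read sequence in KO, 7.54 in WT replicate 1 and 17.8 in WT replicate 2. The share of clusters made of 1 distinct sequence was alike, at 15.4% in KO (13.1 to 18.0%), 14.97% and 14.1%. In KO the median of those single-sequence clusters was 78 reads, against 11 and 16 in the WT libraries.

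**Figure D1:**
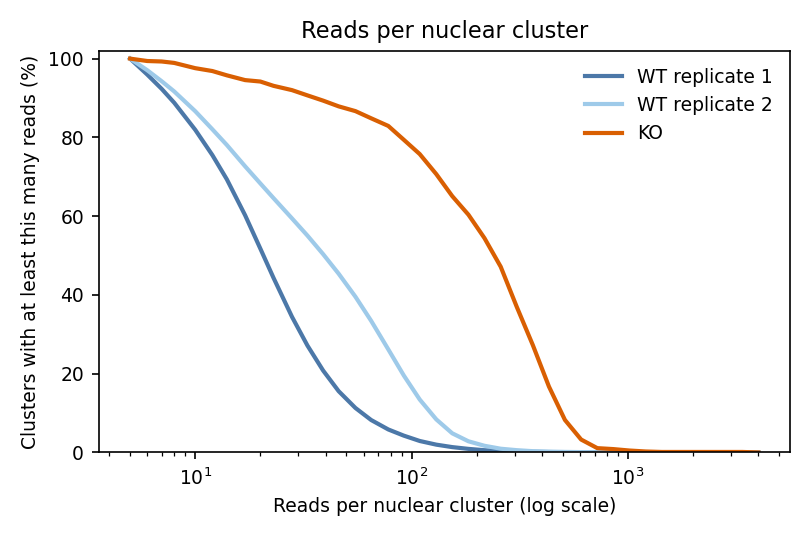
Share of nuclear clusters (vertical axis, percent) with at least the number of reads on the horizontal axis (log scale), for each of the 3 libraries. The KO curve stays high far to the right of both others: 77.7% of its clusters had 100 or more, against 3.55% and 16.4% in the WT libraries.

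The KO clusters were also of other sequence. T made up 33.2% of their bases, against 40.1% in WT replicate 1 and 41.9% in WT replicate 2 (WT mean 41.01 ± 1.24%, SD, n = 2). G made up 18.0% in KO and 10.0 ± 0.0935% in WT (SD, n = 2), A 26.1% and 21.6 ± 0.432%, and C 22.8% and 27.4 ± 0.716%. Clusters in which T and C made up 80% or more of the bases, the kind that MATR3 is known for, numbered 38 of 825 in KO (4.61%, interval 3.37 to 6.26%). They were 15.3% and 17.6% of the nuclear clusters of the WT libraries. The median longest run of pyrimidines was 5 bases in KO and 8 in each WT library.

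Intronic members carried the difference as well. In the 540 intronic KO clusters T made up 33.2% and G 16.5% of the bases, against 40.4% and 9.99% in WT replicate 1 and 42.1% and 9.78% in WT replicate 2. The 53 members in 3′ UTRs stood nearer to WT in T and G, with 39.98% T and 13.8% G. WT clusters in 3′ UTRs had 38.997% and 42.2% T, and 11.4% and 10.7% G. In C and A these members did not stand nearer. C made up 18.6%, against 27.8% and 25.8%, and A 27.7%, against 21.8% and 21.3%. In intronic members C was 23.5%, against 27.7% and 26.8%. Of the members in 3′ UTRs, 3.77% had 80% or more T and C, against 15.7% and 19.0% in WT. Coding members had 28.3% T, and coding clusters of the WT libraries 31.03% and 33.4%.

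Introns made up 65.5% of the members (interval 62.1 to 68.6%), against 84.2% and 83.4% of the nuclear WT clusters. Clusters without annotation made up 14.5% of the members (12.3 to 17.1%) and 6.07 ± 0.218% in WT (SD, n = 2). Repeats made up 4.24% (3.07 to 5.84%) and 2.07 ± 0.175%, and coding sequence 2.18% (1.38 to 3.42%) and 0.397 ± 0.0401%. Members in 3′ UTRs were 6.42% (4.94 to 8.31%), against 2.94% and 4.18%. Each of these KO shares lay outside the range of the 2 WT libraries, and introns were the one class of the 5 that was lower. Among clusters with 100 or more reads, 3′ UTRs made up 7.02% of members (5.29 to 9.26%), against 5.79% and 6.44% in WT. At that depth the KO interval for 3′ UTRs covered both WT shares.

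**Figure D2:**
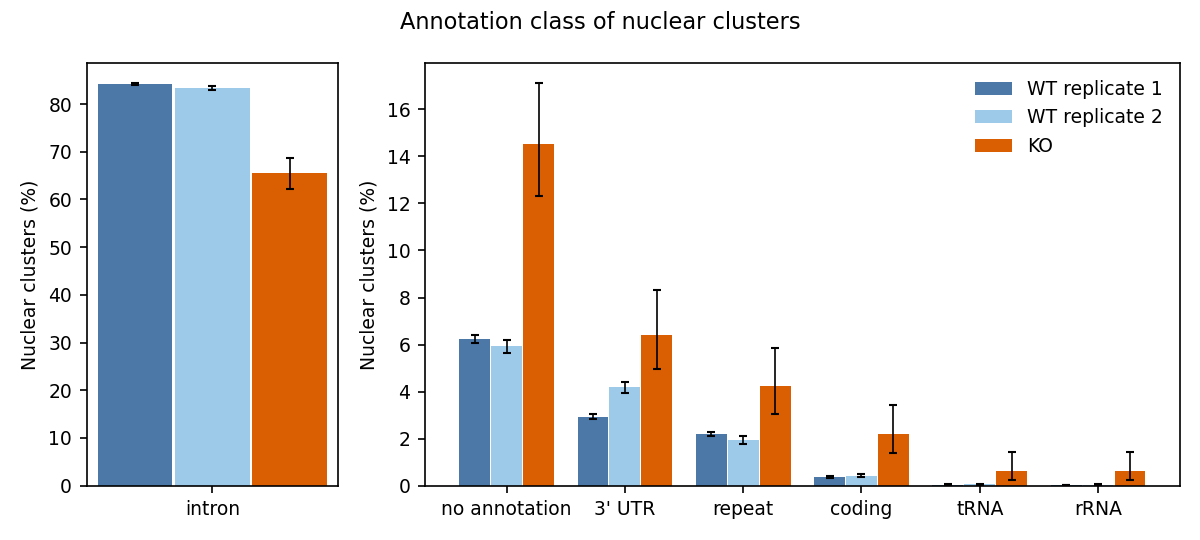
Share of nuclear clusters in each annotation class (percent), with introns on an axis of their own because of their size. Bars are single libraries and error bars are 95% Wilson intervals. The KO bar is lower than both WT bars for introns (65.5% against 84.2% and 83.4%) and higher in the other classes drawn.

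Part of this picture came from a group of long members. Lengths ran from 21 to 51 nt with a median of 30 nt, and 108 members had 40 nt or more. Of these 108, 41 were exactly 43 nt and 60 exactly 46 nt, so that 2 lengths held 101 of them. The same 2 lengths held 1087 of the 8144 WT replicate 1 clusters of 40 nt or more (13.3%) and 180 of 1022 in WT replicate 2 (17.6%). Almost all long KO clusters therefore sat at fixed lengths, which was not so in WT.

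The long members had a common end. The 4 letters TGGA occurred within the last 12 bases of 76 of the 108 (70.4%, interval 61.2 to 78.2%), and of 90 of all 825 members (10.9%, 8.96 to 13.2%). They occurred there in 1.31% of the nuclear clusters of WT replicate 1 and 1.01% of those of WT replicate 2. Among WT clusters of 40 nt or more the shares were 1.77% and 3.42%. At exactly 43 or 46 nt they were 73.3% in KO, 2.76% in WT replicate 1 and 11.7% in WT replicate 2 (21 of 180). The end was thus also raised at these lengths in WT replicate 2, though far less than in KO. In the first 12 bases they occurred in 2.30% of members, 1.58% of WT replicate 1 and 1.50% of WT replicate 2, so the excess was at the 3′ end. The letters of the other strand, TCCA, were in the last 12 bases of 4.36% of members and of 8.85% and 8.90% of WT clusters. Among the 32 long members without TGGA there, 19 ended in TGG, against 0.290% and 0.209% of the WT clusters of any length without TGGA.

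The longer word TGGAATTT, which contains TGGA, was found in the last 12 bases of 14 members (1.70%), against 9 of 87122 and 4 of 27053 clusters of the WT libraries. The 4 with the most reads are shown with capitals from the word to the end of the cluster.
unannotated, chromosome 1: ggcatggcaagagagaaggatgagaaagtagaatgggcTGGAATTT
unannotated, chromosome 14: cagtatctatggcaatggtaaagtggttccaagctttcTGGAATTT
L1ME2: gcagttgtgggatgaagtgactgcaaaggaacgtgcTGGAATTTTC
unannotated, chromosome 12: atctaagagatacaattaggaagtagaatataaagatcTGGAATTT
They lie at chr1:95317543-95317588 (plus strand, 842 reads), chr14:37826204-37826249 (minus strand, 681 reads), chr12:43206348-43206393 (plus strand, in an L1ME2 repeat, 626 reads) and chr12:26919799-26919844 (plus strand, 619 reads). The 4 with the most reads among those with TGGA alone, other than the 5S pseudogene above, are shown in the same way.
PLCH1: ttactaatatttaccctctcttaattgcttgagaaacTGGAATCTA
unannotated, chromosome 6: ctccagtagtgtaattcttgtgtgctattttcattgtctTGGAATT
ADGRE1: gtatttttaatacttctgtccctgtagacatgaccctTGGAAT
unannotated, chromosome 11: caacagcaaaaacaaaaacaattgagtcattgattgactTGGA
They lie at chr3:155593361-155593406 (minus strand, intron, 894 reads), chr6:124519407-124519452 (minus strand, 694 reads), chr19:6939926-6939968 (plus strand, intron, 688 reads) and chr11:119191846-119191888 (plus strand, 663 reads). In all 8 printed clusters the capitals begin within the last 10 bases, and they run on for 4 to 10 letters to the end.

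Conversion split the long members into separate groups. All 14 with TGGAATTT had a T-to-C change in 85.4 to 98.99% of their reads, with a median of 94.6%. Of these 14, 12 were 46 nt long and 2 were under 40 nt, 10 ended exactly with the word, 10 had no annotation and 4 were repeats. In all 14 the deposited mode location, a position whose definition the sources used here do not give, was the last base of the cluster, as in 9.48% of members under 40 nt. The 64 other long members with TGGA had a median of 19.4% converted reads (range 6.27 to 100%), and 50 of them were under 50%. The 32 long members without it had a median of 18.5%, and 25 were under 50%. By contrast, the 717 members under 40 nt had a median of 97.2%, and 21 of them (2.93%, interval 1.92 to 4.44%) were under 50%. Long clusters thus made up 75 of the 96 members with under 50% converted reads. Long WT clusters had medians of 85.7% and 96.0%. The 3′ adapter used in cloning is not given in the sources used here, and whether adapter sequence forms part of these ends was not tested.

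**Figure D3:**
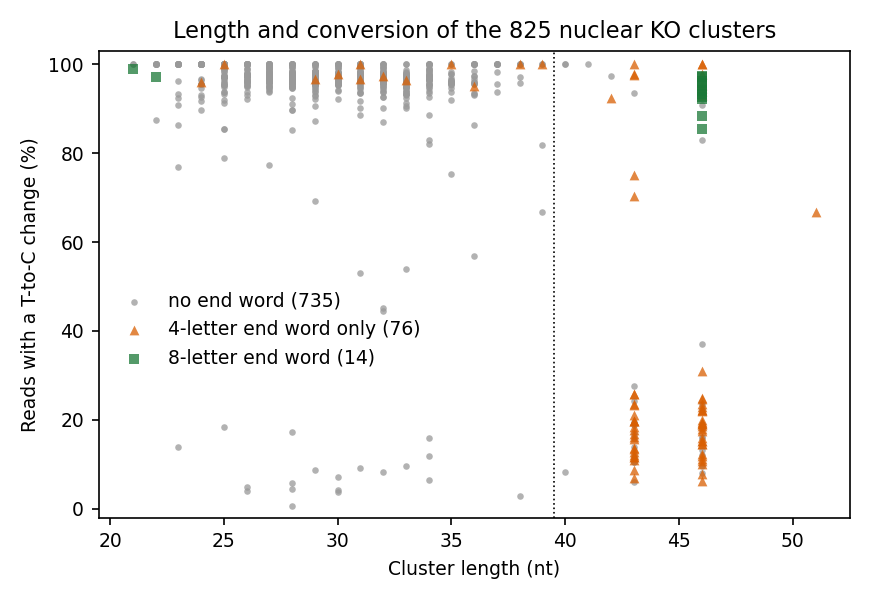
Length of each of the 825 members (horizontal axis, nt) against the share of its reads with a T-to-C change (vertical axis, percent), with symbols for the 4-letter and 8-letter words in the last 12 bases and a dotted line between 39 and 40 nt. Members right of the line fall into columns at 43 and 46 nt, most of them low. The 14 that hold the 8-letter word, 12 of them at 46 nt, lie between 85.4 and 98.99%.

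Without the long members the rest still differed from WT in base composition and in most classes, by less in introns, repeats and clusters without annotation and by more in 3′ UTRs and coding sequence. Among the 717 members under 40 nt, introns made up 71.4% (68.0 to 74.6%), against 83.9% and 83.6% of WT clusters under 40 nt. Clusters without annotation made up 9.34% (7.43 to 11.7%), against 6.47% and 5.86%, and repeats 2.37% (1.49 to 3.76%), against 2.25% and 1.96%. Members in 3′ UTRs made up 7.39% (5.70 to 9.54%), against 2.83% and 4.08%, and coding members 2.37% (1.49 to 3.76%), against 0.387% and 0.423%. With 100 or more reads as well, 3′ UTRs made up 8.17% of short members (6.16 to 10.8%), against 5.15% and 6.09%. Repeats were therefore near the WT share once long clusters were left out, and the long group held 53 of the 120 members without annotation and 18 of the 35 repeats. T made up 33.3% and G 16.9% of the bases of the short members, against 41.2 ± 1.11% and 9.79 ± 0.0833% in WT (SD, n = 2). Of the short members, 79.8% ended in G (76.7 to 82.6%), between 74.0% of WT replicate 1 and 94.8% of WT replicate 2, while 23.1% of the long members did.

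Few members lay where WT clusters did. Of the 825, 41 (4.97%, interval 3.68 to 6.67%) overlapped a WT cluster, on the same strand and by 1 nt or more, 33 of them one of WT replicate 1, 15 one of WT replicate 2 and 7 one of each. Another 2 overlapped on the opposite strand only. Between the WT libraries, which differ in size, 19.3% of nuclear clusters of WT replicate 2 overlapped one of WT replicate 1, and 5.95% the other way round. The members' 4% against WT replicate 1 and 1.82% against WT replicate 2 were below those shares.

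Overlap varied little with the depth of the members. The share was 4.35% (interval 2.22 to 8.34%) among the 184 members with 5 to 99 reads, 4.83% (2.997 to 7.71%) among the 331 with 100 to under 300 and 5.48% (3.45 to 8.61%) among the 310 with 300 or more, and since these intervals overlap a rise with depth was not resolved. Against WT replicate 1 alone the members' shares were 3.26%, 3.93% and 4.52%. In WT replicate 2 the share that overlapped WT replicate 1 was 17.3%, 28.6% and 53.0% in the same bands. At the 1 nt limit, 38 of the 41 overlapped by 10 nt or more, and the other 3 were NAB1 (5 nt), RASA2 (9 nt) and a tRNA-Ala-GCG cluster (9 nt). Just outside it, PLEKHA5, LRRC8D and ADGRV1 members lay 3, 4 and 6 nt from the nearest WT cluster, and 6 members in all lay within 10 nt. The median distance to the nearest WT replicate 1 cluster on the same strand was 3645 nt, and 27.6% of members had one within 1000 nt. From WT replicate 2 the median distance to WT replicate 1 was 471 nt.

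The overlapping members were 27 in introns, 4 in 3′ UTRs, 4 in tRNA genes, 3 without annotation and 1 each in rRNA, repeat and sense-overlapping RNA. They held more T and less G than the others, at 34.8% and 15.7% against 33.1% and 18.1%. Among introns the gap was wider: the 27 that overlapped had 37.8% T and 10.6% G, close to the WT level of G, and the 513 that did not had 32.9% T and 16.8% G. Overlapping members share bases with WT clusters, so a composition nearer to WT follows in part from the split itself. In 28 of the 33 overlaps with WT replicate 1 and 13 of the 15 with WT replicate 2 the KO cluster held more reads than the WT cluster. Medians at those sites were 279 reads in KO and 38 in WT replicate 1, and 278 and 58 in WT replicate 2. Over all nuclear clusters the medians were 242 reads in KO, 20 in WT replicate 1 and 39 in WT replicate 2. The order of KO and WT was thus not particular to the shared sites. These counts are not scaled for depth, which is unknown.

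**Figure D4:**
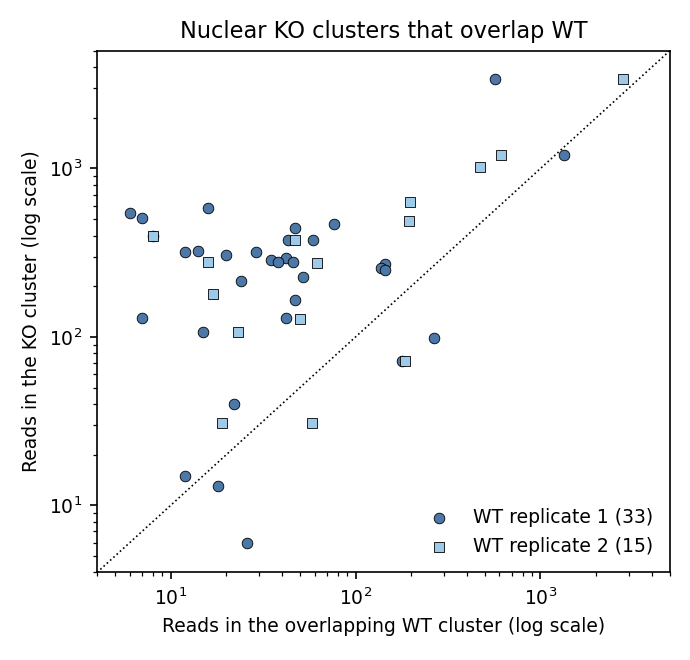
Reads of the KO cluster (vertical axis, log scale) against reads of the overlapping WT cluster (horizontal axis, log scale), for the 33 members that overlap WT replicate 1 and the 15 that overlap WT replicate 2, with a dotted line where both are equal. Most points lie above the line, 28 of 33 and 13 of 15, and RNA5SP242 is the highest with 3377 KO reads. KO clusters also held more reads away from these sites, with a median of 242 over all members.

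RNA5SP242, the 5S rRNA pseudogene, was the deepest member of all. Its cluster had 3377 reads in KO, 566 in WT replicate 1 and 2802 in WT replicate 2. Of these reads 66.7%, 75.6% and 71.6% carried a T-to-C change. 5S rRNA is a structural RNA of the large ribosomal subunit, made from many near-identical gene copies, so reads may come from any of them. Other 5S copies, RNA5SP202 and RNA5SP258, had 489 and 362 KO reads and no cluster in either WT library.

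RBM4, a splicing regulator, had the deepest intronic member. The pyrimidine tract printed above held 1199 reads in KO, 1342 in WT replicate 1 and 614 in WT replicate 2. Only 16.0% of its KO reads were converted, against 38.5% and 65.1% in the WT libraries, so the site was shared while its conversion was lowest in KO. MRPL50, a protein of the mitochondrial ribosome, had 2 members in its 3′ UTR with 1014 and 485 reads. Both overlapped WT replicate 2 clusters, of 468 and 194 reads, and neither overlapped WT replicate 1. They were highly converted in KO, at 97.2% and 94.8%, and less so in WT replicate 2, at 49.6% and 66.5%.

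In most other overlaps the WT cluster held fewer reads than the KO cluster. The WT medians at overlapped sites, 38 and 58 reads, were still above the 20 and 39 over all nuclear clusters of those libraries. MRPS28, another mitochondrial ribosomal protein, had 581 KO reads over 16 in WT replicate 1, and WWC2, an adaptor of the Hippo pathway, had 543 over 6. KCTD20 had 507 over 7, the kinase DYRK1A 466 over 76 and the transcription factor E2F7 443 over 47, again in WT replicate 1 alone. These 5 intronic members were converted in 95.1 to 98.2% of KO reads. WT clusters exceeded KO at NAP1L1, a histone chaperone gene, with 72 reads in KO against 179 and 184 in the WT libraries. WT replicate 1 alone was higher at RBM4, given above, and at DIDO1, with 98 in KO and 265 in WT replicate 1. It was also higher at an unannotated chromosome 10 cluster (13 in KO and 18) and a (GGCGGT)n repeat (6 and 26). WT replicate 2 was higher at RFC3 (31 in KO and 58).

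Transfer RNAs, the adaptors of translation, gave 5 members, of which 4 overlapped WT, beside 4.97% of all members. The exception, tRNA-Gln-CAA, lay 10 nt from a WT replicate 1 cluster. Their share of members was 0.606% (interval 0.259 to 1.41%), against 0.0390% and 0.0518% of nuclear WT clusters. The tRNA-Ser-AGY cluster at chr11:66348154-66348185 on the plus strand was the deepest.
tRNA-Ser-AGY: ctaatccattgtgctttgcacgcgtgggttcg
It had 635 reads in KO, none in WT replicate 1 and 197 in WT replicate 2, with 45.2% of the KO reads and 77.7% of the WT replicate 2 reads converted. The 2 neighbouring tRNA-Ala-GCG members, of 270 and 250 reads, met a single WT replicate 1 cluster of 144 reads. tRNA-Pro-CCY had 226 reads over 52 in WT replicate 1. tRNA genes have near-identical copies, so which copy the reads came from is uncertain.

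A word recurred among members in 3′ UTRs. The word TGTANATA, in which N is any base, is the site bound by PUM2, a protein that represses messenger RNAs through their 3′ UTRs. It occurred in 13 of the 53 members in 3′ UTRs (24.5%, interval 14.9 to 37.6%). It occurred in 47 of 2562 such clusters of WT replicate 1 (1.83%) and 67 of 1131 of WT replicate 2 (5.92%). The shorter TGTA inside it occurred in 29 of the 53 (54.7%), against 8.27% and 15.03% in WT. The letters of the other strand, TATNTACA, were in 2 of the 53 (3.77%, interval 1.04 to 12.8%), against 0.468% and 0.796% in WT. That share was thus also above both WT libraries, though it rests on 2 members. All 13 members with the word ended in G. This word was looked up after the sequences had been seen. Members in 3′ UTRs also hold more A and less C than such WT clusters, and what this adds to the share of the word was not tested.

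Depth narrowed the gap but left it. With 100 or more reads, 12 of 45 members in 3′ UTRs held the word (26.7%, interval 16.0 to 41.04%), against 13 of 179 in WT replicate 1 (7.26%, 4.29 to 12.03%) and 36 of 286 in WT replicate 2 (12.6%, 9.23 to 16.9%). The KO and WT replicate 2 intervals overlap at that depth. In introns it was in 6 of 540 members (1.11%), against 0.154% and 0.182% in WT. Over all nuclear clusters it was in 20 of 825 members (2.42%, 1.57 to 3.71%), against 0.21% of WT replicate 1 and 0.444% of WT replicate 2. Among clusters of 24 to 39 nt the shares were 2.93%, 0.194% and 0.394%, so the order was the same at matched lengths.

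**Figure D5:**
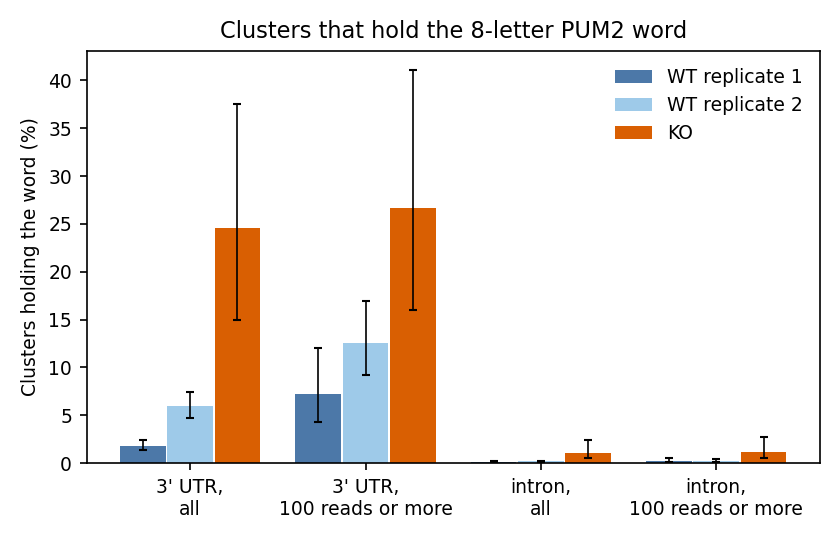
Share of clusters that hold the 8-letter PUM2 word (vertical axis, percent) in 3′ UTRs and introns, for all clusters and for those with 100 or more reads, in each library. Error bars are 95% Wilson intervals. In 3′ UTRs the KO bars are the highest, 24.5% and 26.7%, and in introns all bars are at or under 1.20%.

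5 of the 13 are printed, chosen among those of at most 30 nt, with the word in capitals.
KCNK1: tataaatatgtttatattcTGTACATAtg
LTV1: gtcccctgccaaccatctTGTAAATAttg
KMT2C: aataaatcaatTGTATATAtttttctcttg
ELMSAN1: TGTACATAtataaatattacctcttttg
NFKBIA: ttaccctcctgtaaatggTGTACATAatg
They lie at chr1:233672070-233672098 (plus strand), chr6:143863677-143863705 (plus strand), chr7:152135159-152135188 (minus strand), chr14:73715298-73715325 (minus strand) and chr14:35401574-35401602 (minus strand). In LTV1, KCNK1 and NFKBIA the word sits within a few bases of the closing G, and in ELMSAN1 it opens the cluster.

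Among genes with the word, CTGF (now CCN2, a secreted matrix protein) had 1351 reads in KO and no cluster anywhere in the gene in either WT library. PUM2, the gene of the protein that binds the word, had 954 reads at its word. Its gene held 46 and 23 clusters in the WT libraries, of which 0 and 2 were in the 3′ UTR. AUTS2 had 750 reads at its word, with 121 and 64 WT clusters in the gene and none in its 3′ UTR, and the potassium channel gene KCNK1 had 633, with 4 and 0. The inhibitor of NF-κB, NFKBIA, had 258 reads over a WT replicate 1 cluster of 138 and none in WT replicate 2 at that site. ELMSAN1 (now MIDEAS) was the other one that overlapped, with 278 reads in KO, 38 in WT replicate 1 and 16 in WT replicate 2. The remaining 7 were LTV1, KMT2C, ADAT2, SLC38A2, MAP4K3, ZNF639 and PPP3R1, with 79 to 449 reads and no WT cluster at the site. Of the 13 members with the word 2 thus overlapped WT, beside 4.97% of all members.

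Conversion in 3′ UTRs was uneven in KO as in WT. 11 of the 53 members had under 50% converted reads (20.8%, interval 12.005 to 33.5%), against 14.7% and 17.4% of WT clusters in 3′ UTRs, whereas 5.00% of intronic members, 3.74% and 3.15% did. RBM5, another splicing regulator, was the deepest of the 11, with 1174 reads and 7.24% converted, and its gene had 7 clusters in the first WT library and none in the second. KMT2C, a histone methyltransferase, had 368 reads and 4.35% converted, and MAP4K3, a kinase, 106 reads and 2.83%. CTGF, PUM2 and AUTS2 lay between, at 56.8%, 54.0% and 53.1%. Of the 6 deepest members in 3′ UTRs, MRPL50 (97.2%) and KCNK1 (97.9%) alone were converted in most of their reads to the extent seen in introns.

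The members fell in 613 genes, of which 600 matched a RefSeq name. Of the 613, 474 (77.3%, interval 73.8 to 80.5%) also had a nuclear cluster in both WT libraries, 91 in 1 of them and 48 in neither. Taken against 1 library at a time, 91.0% of the KO genes had a cluster in WT replicate 1 (interval 88.5 to 93.04%), beside 91.5% of the genes of WT replicate 2. In WT replicate 2, 78.5% of the KO genes had one (75.04 to 81.5%), beside 60.1% of the genes of WT replicate 1. KO genes were thus shared about as often as WT genes or more often, while sites were shared less often than between the WT libraries. The KO genes were long, with a median RefSeq length of 105026 bases, against 48542 and 62891.5 bases for the genes of the WT libraries, and those in both WT libraries held a median of 19 and 6 WT clusters each. The genes of members in 3′ UTRs were of ordinary length, at 38189 bases, against 37633.5 and 39293.5 bases.

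Only 5 genes had 3 or more members, all of them intronic. DYRK1A had 4, of 466, 367, 285 and 97 reads, and held 108 clusters in WT replicate 1 and 36 in WT replicate 2. The first overlapped WT, the second lay 11 nt from a WT replicate 1 cluster, and the others were 775 nt or more away from any. WWC2 had 3 members, of 543, 438 and 242 reads, and 69 and 43 WT clusters, and the last, of 43 nt, was converted in 11.6% of its reads. ADK, which makes adenosine kinase, had 3 of 438, 100 and 10 reads with 76 and 32 WT clusters. ANKRD11, a chromatin regulator, had 3 of 324, 229 and 20 reads with 95 and 23, and COG5, of the Golgi tethering complex, 3 of 322, 273 and 142 reads with 24 and 9. Among the 16 members of these genes 1 from DYRK1A and 1 from WWC2 overlapped WT, beside 4.97% of all members.

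The 10 genes with the most member reads were RNA5SP242 (3377), MRPL50 (1499), CTGF (1351), WWC2 (1223), DYRK1A (1215), RBM4 (1199), RBM5 (1174), PUM2 (954), PLCH1 (894) and AUTS2 (849). 5 of them owed their place to a 3′ UTR cluster. The PLCH1 member, in an intron of a phospholipase gene, was one of the 46 nt clusters with TGGA printed above. Genes with no WT cluster at all were led by CTGF and ADGRE1 (688 reads, also a long cluster with TGGA), and 14 of their 48 members were 40 nt or longer, against 108 of all 825.

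Of the gene lists looked up, each matched by gene name, RNA-binding proteins of the hnRNP, SRSF, PTBP and DDX/DHX families had the most genes with a member, 9 of 613 (1.47%), against 72 of 9174 genes (0.785%) and 47 of 6028 (0.780%) in the WT libraries. HNRNPA3 (3′ UTR, 514 reads) and HNRNPK (coding, 296 reads), of the family that packages nascent transcripts, lay outside introns. The list also took in DDX26B (307 reads, intron) by its older name, although it is now INTS6L and no helicase of this family. DDX1 (194), DDX10 (262), DHX15 (124), HNRNPM (149), PTBP2 (277) and SRSF4 (15) were intronic as well. Of the 9, SRSF4 alone overlapped WT (12 reads in WT replicate 1), which at this number cannot be told from the 4.97% over all members.

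Ribosomal genes were few. The list of cytosolic ribosomal proteins, matched by names in RPL or RPS, had 4 genes with a member (0.653%, against 0.600% and 0.464%). RPL4 (404 reads) and RPL37A (149) had theirs in introns. RPL7L1 (608), an RPL7-like gene taken in by its name, and RPS6 (199) had theirs in coding sequence, and neither of these 2 had a WT cluster. Mitochondrial ribosomal proteins had 5 (0.816%, against 0.491% and 0.415%): MRPL50 and MRPS28 above, with MRPL3 (289), MRPS27 (93) and MRPL1 (45) in introns and without overlap. Over all members 4.97% overlapped WT.

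Small structured RNAs by gene name had 5 (0.816%, against 0.687% and 0.299%), the 3 5S copies and the microRNA host genes MIR181A1HG (370) and MIRLET7BHG (379), both at introns of the host gene. Cytoskeleton and adhesion genes had 3 (0.489%, against 0.164% and 0.149%): CTGF, MYH9 (248 reads, 43 nt, 25.8% converted) and the actin regulator CFL1 (3′ UTR, 8 reads). Translation factors, histones, nuclear long noncoding RNAs, chaperones and glycolytic genes had 0, against 5 to 51 genes of each list in the WT libraries, where 6028 and 9174 genes had a cluster. No such list reached more than 0.556% of the genes of a WT library, so a count of 0 among 613 genes says little.

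Coding members numbered 18, and 0 of them overlapped WT (interval 0 to 17.6%), which at this number cannot be told from the 4.97% over all members. The deepest were RPL7L1 with 608 reads, ZDHHC17 with 457, TFRC, the transferrin receptor, with 446 and FBXO5, an inhibitor of the anaphase-promoting complex, with 385. All 18 had more than 50% converted reads. FSCN1, an actin-bundling protein with 218 reads, is the T-poor cluster printed above.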

How the data were processed

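The authors deposited 1 cluster table per library. Per the file headers, it holds raw counts of reads and conversion events, not scaled for depth. The conversion of a cluster is its deposited fraction of converted reads. Deposited caller scores were not used. The submitters' processing notes name Bowtie 1.1.2, cutadapt 1.8.3, hg38 and GRCh38.p5 with no role, and the cluster caller and its filters are not given in the sources used here. No label gives a date, so no batch could be set.

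Members were chosen by chromosome, and members, lists and words were chosen with earlier results of these data known. Each cluster kept the single annotation the authors gave it, so overlapping genes are uncertain. Overlap meant at least 1 nt on the same strand. Shares carry 95% Wilson intervals. Named are the 10 genes with the most KO reads, genes with 3 or more KO clusters, the 10 deepest overlapping clusters and list genes with a cluster, and others that a word or limit singles out, chosen after their values were seen. The overlap and interval code was tested on simulated data. Python 3.11.15, numpy 2.4.6, pandas 2.3.3, scipy 1.17.1 and matplotlib 3.10.9 were used.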

Additional observations from a re-analysis of the deposited data

How the results depend on the processing

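Of the alternatives, 2 were chosen after seeing the data: clusters under 40 nt only, and no clusters of 1 distinct sequence. The share of members overlapping WT (4.97%) was 1.25% with at least 100 reads in every library, 2.32% with at least 3 converted positions and 0.848% with each WT library limited to as many of its deepest clusters as KO has. Leaving out a WT library gave 1.82 to 4%. The intronic share (65.5%) was 59.8% with 3 converted positions and 71.4% under 40 nt. T (33.2%) was 35.8% with 3 converted positions. G (18.0%) was 16.9% with 3 converted positions, 16.9% under 40 nt and 16.1% as a median over clusters. Median reads (242) were 293, 367 and 271.5 with 100 reads, 3 converted positions and without single-sequence clusters. Converted T events (9.27%) were 9.12% with 100 reads, 6.98% with 3 converted positions, 9.04% with mitochondrial clusters, 9.55% without the 10 deepest members, 11.0% under 40 nt, 8.59% without single-sequence clusters and 11.1% as a median. This share was above both WT libraries (8.01% and 7.58%) as a whole but below WT replicate 1 (7.46%) with 3 converted positions. Genes in both WT libraries (77.3%) were 28.0% with 100 reads, 50.5% with 3 converted positions and 59.2% with 3 clusters required in each, and 78.5 to 91.0% with 1 WT library left out. The order of KO and WT for introns, T, G and median reads held under every filter in each library. The filter that drops repeated cluster sequences removed no cluster, so it could not change the order. Leaving out the 10 deepest members changed KO only. The limit of 100 reads removes most WT clusters, and other causes of these moves were not tested. No paired analysis was possible because KO has 1 library and no test was run. With 1 KO library, its spread is unknown.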

Other observations

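The word GCATG, the core of the site bound by RBFOX splicing regulators, occurred in 19 of the 717 members under 40 nt (2.65%, 95% Wilson interval 1.70 to 4.10%), against 0.728% of such clusters in WT replicate 1 and 0.761% in WT replicate 2. GTATA occurred in 29 of the 717 (4.04%, 2.83 to 5.75%), against 0.701% and 0.757%. Both words were picked after the sequences had been seen, and members hold more G and A than WT clusters, which raises the share of many words with those letters.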
